A study of Homo sapiens with 24 samples.

Results

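The genes examined here are 50 developmental homeobox and paired-box genes outside the HOX clusters, of 20111 uniquely named protein-coding genes in all. They were chosen by name, as PAX, LHX, NKX, sine oculis-related (SIX2 to SIX6), DLX, IRX, MSX, OTX, EN, PITX and GBX genes of a given list, by a rule that uses no measured value, although the set was proposed with earlier results of these data known. They comprise 9 PAX, 8 LHX, 6 NKX, 5 sine oculis-related, 6 DLX, 6 IRX, 2 MSX, 2 OTX, 2 EN, 2 PITX and 2 GBX genes on 14 chromosomes. Histone modifications were profiled by chromatin immunoprecipitation and sequencing in PANC-1 cells, an established line from a human pancreatic ductal carcinoma. All cells were transfected with an siRNA, either a control (siControl) or one against PHF13 (siPHF13), a PHD finger protein that binds H3K4me3. The groups were siControl without TGFβ, siControl+TGFβ and siPHF13+TGFβ, with TGFβ at 10 ng/ml for 48 h. Each group held 2 libraries for each of H3K4me3, H3K27ac and H3K27me3, 18 lists in all. There was no PHF13-depleted group without TGFβ, and nothing in the descriptions says that the duplicates came from separate cultures, so p-values measure only the spread between these libraries, which may be technical.

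Genes of these families encode transcription factors that bind DNA through a homeodomain, a paired domain or both, and they specify regions and cell types of the embryo. In differentiated cells most of them are silent, and many are kept so by Polycomb complexes, which deposit H3K27me3 over broad domains. At unmethylated CpG-rich promoters H3K27me3 is often found together with H3K4me3, a combination known as bivalent chromatin, whereas H3K27ac marks promoters in use. Among these families PAX4, PAX6 and NKX2-2 act in pancreatic endocrine cells, PAX2, PAX8, LHX1 and SIX2 in the kidney, NKX2-1 in thyroid and lung, NKX2-5 in the heart and the EN, OTX, GBX and DLX genes in the brain.

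The value used throughout is the number of bp covered by peaks within 5 kb of a gene's annotated transcription start sites (TSSs), taken from hg19 GENCODE. Windows of genes with several TSSs are longer, from 10001 bp up to 28599 bp at PAX5. A peak is a call of the authors' software in 1 library against input, so a gene without a peak had no region past that threshold, and the read depth behind each list is unknown. The lists were unequal. H3K4me3 lists held 27869 to 39202 peaks, H3K27ac lists 6004 to 36104 and H3K27me3 lists 59573 to 165717, and siPHF13+TGFβ replicate 1 was the shortest for all 3 marks. Around PHF13 itself, H3K4me3 covered 2205 to 3084 bp in the 6 lists, which does not measure the depletion. Of 8 epithelial marker genes, 7 had H3K4me3 in all 6 lists, where 72.5% of all protein-coding genes had it. H3K27ac was in all 6 lists at 3 of the 8, in at least 5 at 6 and in none at CDH1. H3K27me3 was found at EPCAM and CDH1, in at least 5 lists each. Of 13 marker genes of other cell types, 12 were measured, and 0 had H3K4me3 in all 6 lists. At 11 of the 12 H3K27ac was in no list. Peak identifiers go against the labels in the treated samples, since the lists labelled siPHF13+TGFβ carry NCT, the study's own abbreviation for siControl+TGFβ, and those labelled siControl+TGFβ carry another. Groups were taken from the labels. If these labels were exchanged, the group compared with siControl below would be the depleted one, so directions in both comparisons depend on them.

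To examine the state of these promoters, a mark was taken as present in a group when both libraries had a peak in the window. In siControl cells 27 of the 50 genes carried H3K4me3 with H3K27me3, and a further 3 carried these and H3K27ac. The first set comprised PAX3, PAX5, PAX6, PAX7, LHX2, LHX3, LHX4, LHX6, LHX9, NKX2-1, NKX2-2, NKX2-3, NKX2-5, NKX3-2, NKX6-2, SIX2, SIX3, DLX3, DLX4, DLX5, DLX6, IRX4, MSX1, MSX2, EN1, EN2 and GBX1. The genes with all 3 marks were PAX8, PITX1 and PITX3. H3K4me3 with H3K27ac and without H3K27me3 was found at PAX2, LHX1, SIX4, SIX5, IRX3 and IRX5. H3K4me3 alone was found at PAX9, DLX1, DLX2, OTX1 and GBX2, and H3K27me3 alone at PAX4, LHX5 and OTX2. The remaining 6, PAX1, LHX8, SIX6, IRX1, IRX2 and IRX6, had no mark in both libraries.

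**Figure D1:**
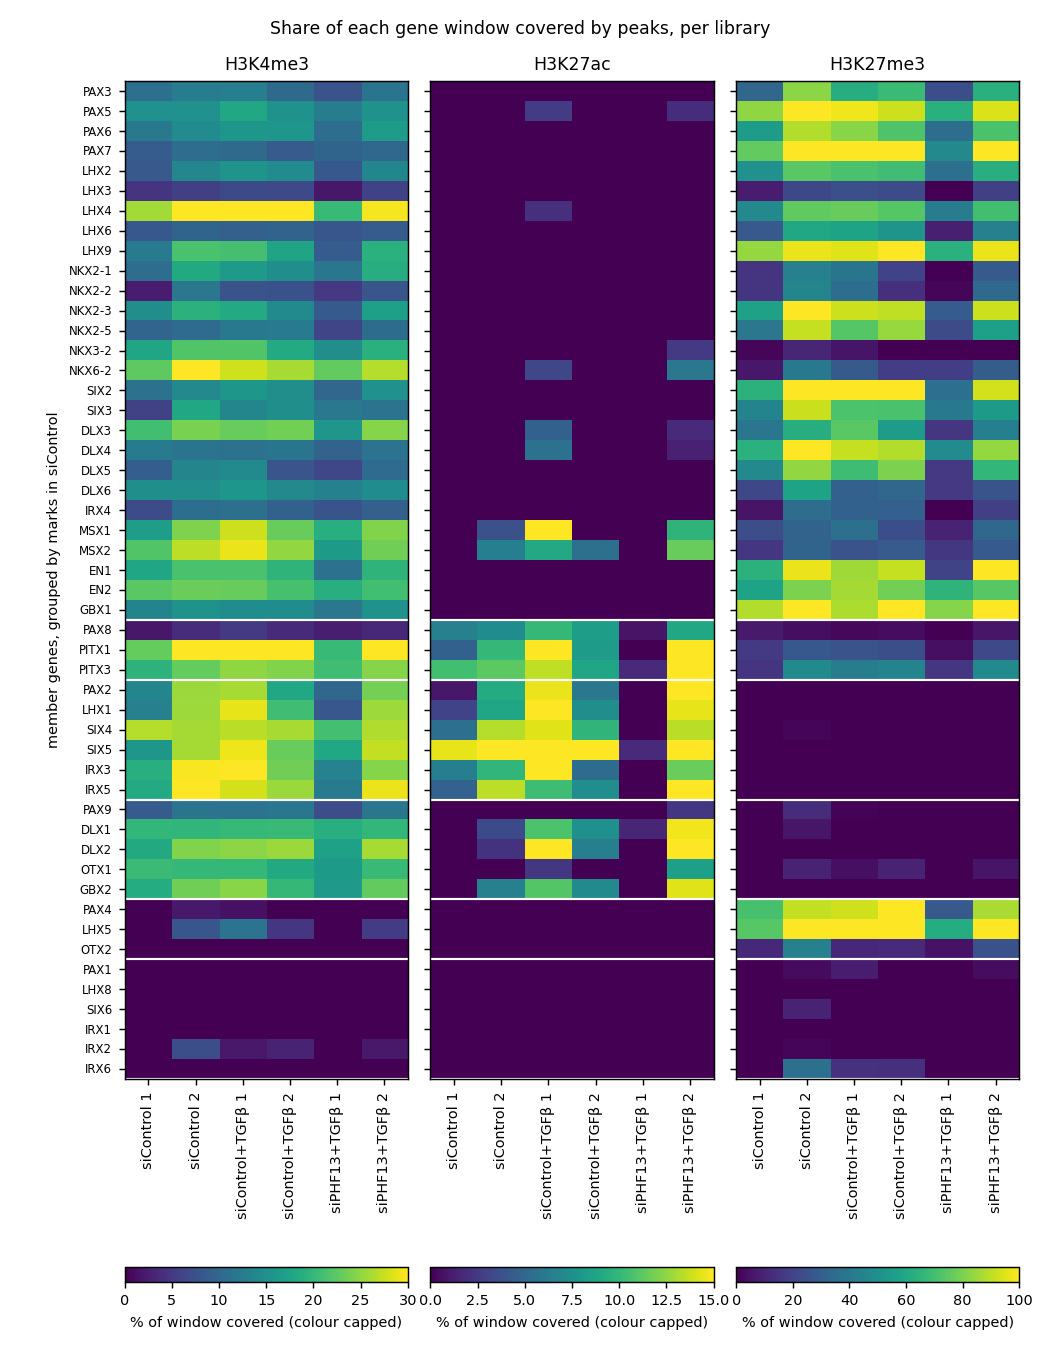
Share of each gene's window covered by peaks of H3K4me3, H3K27ac and H3K27me3 (colour, % of window), with 1 row for each of the 50 genes, grouped by their marks in siControl (white lines), and 1 column for each library. The colour scale differs between marks and is capped at its upper end. H3K27me3 is broad in the upper rows, H3K27ac is found mainly in the middle rows, and siPHF13+TGFβ replicate 1 is the faintest column for each mark.

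The share of genes with both H3K4me3 and H3K27me3, with or without H3K27ac, was 60% of these genes in siControl cells, 62% after TGFβ and 50% after TGFβ with PHF13 depleted. Over all protein-coding genes the shares were 20.3%, 22.4% and 15.3%. The share was 38.5% for the 39 HOX genes, 48.8% for 43 forkhead genes and 62.9% for 70 other homeobox genes in siControl, so the value was not the highest among gene families. H3K4me3 with H3K27ac and no H3K27me3 showed the reverse order, at 12% of these genes and 43.5% of all genes in siControl. In total 31 of the 50 genes had the same combination in all 3 groups, and 25 had H3K4me3 and H3K27me3 in all 3. With each library left out in turn, 25 to 31 genes had H3K4me3 and H3K27me3 in siPHF13+TGFβ. The ranges were 31 to 34 in siControl+TGFβ and 30 to 37 in siControl. A group with a library left out was judged by its other library alone. The lower share of 50% with depletion therefore rests on which library is used.

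**Figure D2:**
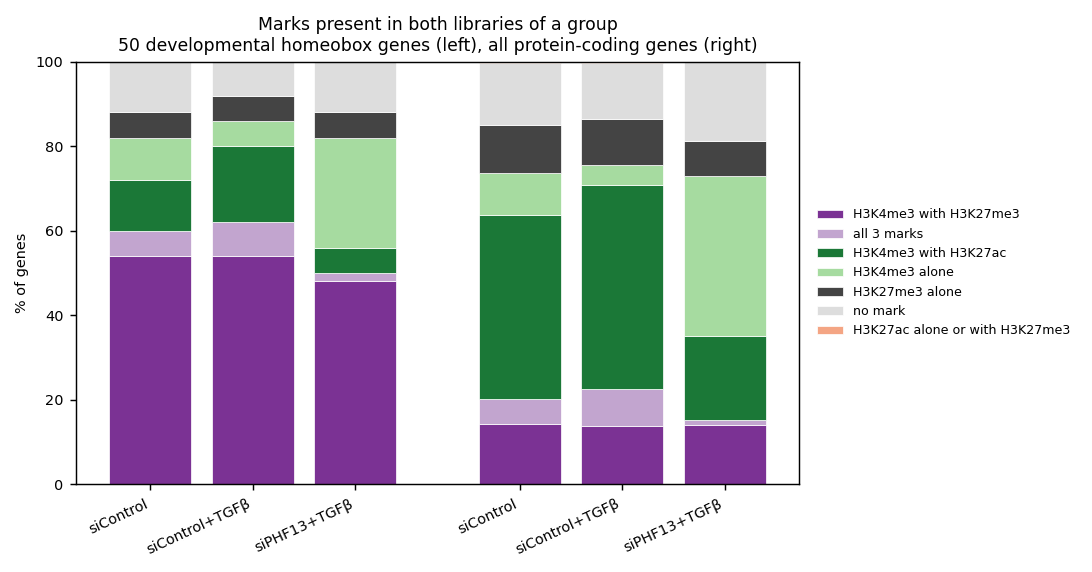
Share of genes (%, stacked to 100) with each combination of marks in both libraries of a group, for the 50 homeobox genes (left bars) and all protein-coding genes (right bars). The purple segments, H3K4me3 with H3K27me3 with or without H3K27ac, reach 50% to 62% on the left and 15.3% to 22.4% on the right.

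Counted over the 6 lists of a mark, H3K27me3 was present in all 6 at 28 of these genes (56%), against 21.8% of all protein-coding genes, and in none at 9 (18%), against 52.9%. H3K27ac showed the opposite pattern, with peaks in all 6 lists at 3 genes (6%), against 21.0%, and in none at 28 (56%), against 35.4%. H3K4me3 was present in all 6 lists at 41 genes (82%), against 72.5%. Of the 28 genes with H3K27me3 in all 6 lists, 19 had no H3K27ac peak in any list.

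The strongest H3K27me3 peak in a window had a median percentile by q-value of 87.5 to 96.9 over the 6 lists, against 74.2 to 85.1 over all protein-coding genes with a peak. In siControl replicate 2 it lay in the top 5% of the list at 23 of the 41 genes with one (56.1%), against 27.5% over all genes, and in siPHF13+TGFβ replicate 1 at 3 of 28 (10.7%), against 12.4%. For H3K4me3 the order was the reverse, with medians of 51.7 to 60.1 against 73.1 to 78.5. A window can hold several peaks, and the highest was taken in all genes alike. In all, 10 of these genes had the whole window covered by H3K27me3 in at least 1 list. In siControl replicate 2 this held for 7 of the 50, against 286 of the 20111 protein-coding genes. The widest peak, 80304 bp, lay over PAX5 in siControl replicate 2, where the median over the 6 lists was 50689 bp. EN2, NKX2-3 and PAX7, named after the values were seen, had widest peaks of 43481, 41879 and 39848 bp.

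The marks were placed differently around the gene start. H3K4me3 peaks covered at most 44.6% of bases over the 50 genes, 150 bp downstream of the start (mean of 6 lists), against 58.8% over all genes. H3K27me3 covered between 31.2% and 40.1% of bases from 5 kb upstream to 5 kb downstream, with its lowest value 250 bp downstream of the start. Over all genes it reached at most 13.5%. H3K27ac reached 13.1% at 450 bp downstream, against 34.5% over all genes.

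**Figure D3:**
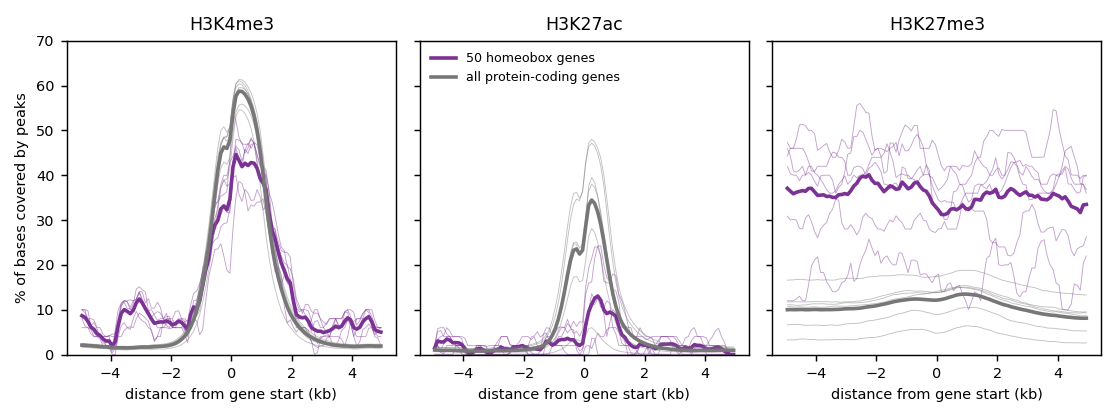
Share of bases covered by peaks (%, y axis) against distance from the gene start (kb, x axis, downstream to the right) for the 50 homeobox genes (purple) and all protein-coding genes (grey). Thin lines are the 6 libraries of a mark and thick lines their mean. The mean of H3K27me3 over the homeobox genes stays between 31.2% and 40.1% and is lowest just downstream of the start.

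H3K4me3 and H3K27me3 often covered the same bases. In siControl replicates 1 and 2, 33.6% and 48.3% of the bp under H3K4me3 peaks at these genes also lay under an H3K27me3 peak of the same replicate number, against 5.88% and 10.3% over all genes. For siControl+TGFβ the shares were 46.9% and 43.3%. For siPHF13+TGFβ they were 24.3% and 41.8%. Peaks come from populations of cells, so marks on the same chromosome and marks in different cells cannot be told apart. H3K27ac and H3K27me3 shared far fewer bases. Of the H3K27ac bp at these genes, 0% lay under H3K27me3 in 4 of the 6 pairs of lists. The share was 5.32% in siControl+TGFβ replicate 1 (at PAX5 and DLX4) and 3.02% in siPHF13+TGFβ replicate 2 (at PAX5 and NKX6-2), against 0.517% and 0.439% over all genes.

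PAX5, the B-cell lineage factor, had the most H3K27me3 and the most bp under both H3K4me3 and H3K27me3. Its H3K27me3 covered 23841 and 28599 bp (siControl), 28003 and 26370 bp (siControl+TGFβ) and 18209 and 27080 bp (siPHF13+TGFβ), of a window of 28599 bp. H3K4me3 covered 4342 and 4347, 5152 and 4388, and 3595 and 4396 bp in the same order. The shortest list of each mark gave the lowest value, and the groups overlapped for H3K27me3. The 250 bases upstream of its start (chr9:37034266-37034515, minus strand, GRCh37) are shown because H3K27me3 covered all of them in 6 of 6 lists, with H3K4me3 on up to 135 of them in 2 lists. CG dinucleotides, which read the same on both strands, are in capitals.
PAX5: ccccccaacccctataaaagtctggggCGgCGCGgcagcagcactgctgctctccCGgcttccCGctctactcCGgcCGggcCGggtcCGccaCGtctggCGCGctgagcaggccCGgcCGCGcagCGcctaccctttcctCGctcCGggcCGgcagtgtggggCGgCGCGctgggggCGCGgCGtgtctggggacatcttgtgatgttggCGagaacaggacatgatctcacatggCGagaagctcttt
It holds 27 CG, and 17.9% of the upstream sequences of all protein-coding genes hold at least as many (median 14).

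PAX6, which specifies eye, brain and islet cells, and LHX2, a LIM-homeodomain factor of forebrain and eye, were the next genes of this class by the sum of mean H3K4me3 and H3K27me3 bp. This order follows bp and so favours long windows, and by bp under both marks LHX9 (mean 2587) came before LHX2 (2414). At PAX6 H3K27me3 covered 13603 and 21845 bp (siControl), 20278 and 17954 bp (siControl+TGFβ) and 8893 and 17647 bp (siPHF13+TGFβ), and H3K4me3 covered 2993 and 3585, 3924 and 3901, and 2686 and 4058 bp. The window of PAX6 also holds the start of a second annotated coding gene, ENSG00000285283. At LHX2 H3K27me3 covered 11925 and 17541, 16867 and 16361, and 8648 and 14916 bp, and H3K4me3 1973 and 3283, 3656 and 3421, and 1948 and 3265 bp. In both genes replicate 1 was the lower replicate of siControl and of siPHF13+TGFβ. NKX2-2, the other endocrine factor of this class, had smaller domains, with 162 to 4563 bp of H3K27me3 in the 6 lists and no H3K27ac in any.

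H3K27me3 alone marked PAX4, LHX5 and OTX2. PAX4, an islet factor, carried 8825 and 11281 bp (siControl), 11521 and 12417 bp (siControl+TGFβ, the last being its whole window) and 3472 and 10859 bp (siPHF13+TGFβ). H3K4me3 reached it in 2 lists, with 254 bp in siControl replicate 2 and 161 bp in siControl+TGFβ replicate 1. LHX5, a factor of the developing forebrain, had its whole window of 10001 bp covered in 4 lists and 7407 and 6207 bp in replicate 1 of siControl and of siPHF13+TGFβ. OTX2, a head organiser and retinal factor, had 2342 and 9171, 2311 and 2575, and 1008 and 5267 bp, and H3K4me3 in no list. LHX5 had H3K4me3 in both siControl+TGFβ libraries (1141 and 471 bp), 1 of 2 siControl libraries (807 bp) and 1 of 2 siPHF13+TGFβ libraries (525 bp), so its combination differed between groups through presence or absence in single libraries.
PAX4 stood apart in sequence. The 250 bases upstream of its start (chr7:127258197-127258446, minus strand, GRCh37), chosen after the values were seen, hold 1 CG, and H3K27me3 covered all of them in 5 of 6 lists.
PAX4: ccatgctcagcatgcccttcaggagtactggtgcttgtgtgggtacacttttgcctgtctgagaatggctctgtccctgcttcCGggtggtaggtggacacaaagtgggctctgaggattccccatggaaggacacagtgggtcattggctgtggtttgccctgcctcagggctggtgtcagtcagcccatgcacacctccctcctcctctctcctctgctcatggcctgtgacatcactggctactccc
Of all upstream sequences, 96.3% hold at least 1 CG.

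H3K27ac peaks were found in at least 5 of 6 lists at 10 of these genes, and 5 of the 10 had no H3K27me3 in any list. PAX2, PAX8 and LHX1, factors of the early kidney, were among the 10, whereas SIX2, a factor of nephron progenitors, had 3671 to 10001 bp of H3K27me3 and no H3K27ac in any list. This grouping by organ was made after the values were seen. PAX2 had 223 and 2141 bp of H3K27ac (siControl), 3392 and 1396 bp (siControl+TGFβ) and 0 and 3836 bp (siPHF13+TGFβ), with H3K4me3 of 2343 to 6071 bp and no H3K27me3. LHX1 had 447 and 1306, 2505 and 1095, and 0 and 2144 bp of H3K27ac and 1215 to 4280 bp of H3K4me3. In both genes the siPHF13+TGFβ libraries lay at the bottom and at or near the top of the range. The strongest H3K4me3 peak of PAX2 lay upstream of its gene start in 6 of 6 lists, with its centre at a median of -5208 bp. The strongest H3K27ac peak lay upstream in 3 of 5 lists, and downstream in siControl replicate 2 (4072 bp) and siPHF13+TGFβ replicate 2 (4142 bp).

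PAX8, also a thyroid factor, had the highest mean H3K27ac of these genes, with 1756 and 1963 bp (siControl), 2681 and 2246 bp (siControl+TGFβ) and 211 and 2416 bp (siPHF13+TGFβ). These peaks did not lie at the start of the gene. Their strongest peak had its centre at a median of 38280 bp downstream of the gene start, near a coding TSS 37.1 kb inside the gene, and the strongest H3K4me3 peak lay at 38428 bp. Within 5 kb of the gene start alone, H3K4me3 was at 0 bp in 6 of 6 lists and H3K27ac at 0 to 322 bp, while H3K27me3 covered 468 to 1467 bp in the 5 lists that had it. The sequences upstream of both starts are shown because they differ in H3K27ac. No peak of any mark touched the 250 bases before the gene start (chr2:114036499-114036748, minus strand, GRCh37, 11 CG). H3K27ac covered all 250 bases before the inner TSS (chr2:113999357-113999606, minus strand, 4 CG) in 5 of 6 lists, with no H3K4me3 or H3K27me3 there.
PAX8 gene start: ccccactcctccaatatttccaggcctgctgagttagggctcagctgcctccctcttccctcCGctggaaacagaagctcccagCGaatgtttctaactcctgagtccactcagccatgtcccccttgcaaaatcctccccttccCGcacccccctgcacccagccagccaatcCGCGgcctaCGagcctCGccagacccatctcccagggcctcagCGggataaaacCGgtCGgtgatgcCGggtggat
PAX8 inner TSS: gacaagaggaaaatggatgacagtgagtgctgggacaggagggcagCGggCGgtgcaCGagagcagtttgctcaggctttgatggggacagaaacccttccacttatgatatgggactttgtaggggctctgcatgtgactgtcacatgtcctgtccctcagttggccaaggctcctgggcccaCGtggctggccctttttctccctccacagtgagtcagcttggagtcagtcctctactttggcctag
Of all upstream sequences, 58.0% hold at least 11 CG and 79.3% at least 4.

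The genes with all 3 marks differed in where they carried them. PITX3, a factor of lens and midbrain neurons, had 1047 and 1122, 1356 and 885, and 180 and 1533 bp of H3K27ac in its window, but the window also holds the start of GBF1, a housekeeping gene of vesicle transport. Within 1 kb of the PITX3 start H3K27ac was 0 bp in 6 of 6 lists, and within 1 kb of the GBF1 start it was 180 to 1533 bp. H3K27me3 was 0 to 863 bp at the former and 0 bp in each list at the latter. PITX1, a hindlimb and pituitary factor, had 491 and 1057, 2118 and 872, and 0 and 2794 bp of H3K27ac, with 451 to 2930 bp of H3K27me3. Between 330 and 515 bp of its window lay under both H3K4me3 and H3K27me3 in each of the 6 pairs of lists, although the strongest peaks were apart, with median centres at 1923 bp (H3K4me3), 3073 bp (H3K27ac) and -4824 bp (H3K27me3). At PITX3 such bases were found in 3 pairs of lists (23 to 217 bp). SIX5 shares its window with the start of DMPK, and H3K27ac was found within 1 kb of both, at 187 to 2130 bp for SIX5 in 6 lists and up to 1934 bp for DMPK in 5.

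The other genes of the acetylated set were SIX4, IRX3, IRX5 and DLX1. SIX4, a myogenic factor, had 546 and 1331 bp (siControl), 1428 and 979 bp (siControl+TGFβ) and 0 and 1346 bp (siPHF13+TGFβ). IRX3 and IRX5, Iroquois factors of neural and heart patterning, had 707 and 1082, 2011 and 582, and 0 and 1264 bp, and 486 and 1394, 1068 and 761, and 0 and 1715 bp. DLX1, a forebrain interneuron factor, had 0 and 366, 1162 and 811, and 175 and 1583 bp. SIX5 had 1537 and 2272, 2663 and 1737, and 187 and 2822 bp, with 1682 to 3101 bp of H3K4me3. DLX2, GBX2 and MSX2 had peaks in 4 of 6 lists. Across these 13 genes siPHF13+TGFβ replicate 1 was at 0 bp in 9 and between 175 and 211 bp in the other 4, whereas replicate 2 of the same group was within or above the range of the siControl+TGFβ libraries in all 13.

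**Figure D4:**
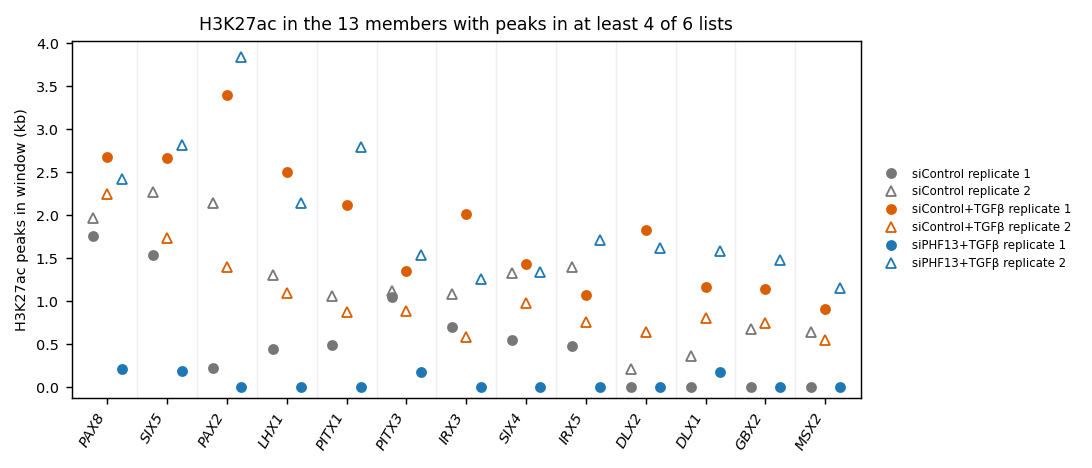
H3K27ac peaks in the gene window (kb, y axis) of the 13 genes with peaks in at least 4 of 6 lists, ordered by mean over the 6 lists. Each point is 1 library, with colour for the group, circles for replicate 1 and triangles for replicate 2. siPHF13+TGFβ replicate 1 lies at or near 0 in each gene and replicate 2 does not.

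Genes without H3K27me3 in any list were PAX2, LHX1, LHX8, SIX5, DLX2, IRX1, IRX3, IRX5 and GBX2. DLX2 had 1828 and 2431, 2482 and 2552, and 1713 and 2613 bp of H3K4me3, and GBX2, a hindbrain boundary factor, had 1930 and 2442, 2555 and 2075, and 1683 and 2363 bp. In LHX8, a cholinergic neuron and oocyte factor, and in IRX1 no peak of any mark was found in 18 lists. IRX2 had 186 bp of H3K27me3 and 726 bp of H3K4me3 in siControl replicate 2, with 204 to 288 bp of H3K4me3 in 3 further lists. PAX1 and SIX6 had no H3K4me3, with H3K27me3 of at most 792 and 961 bp.

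As a group these unmarked genes were not poor in CpG. The median observed-to-expected CpG ratio in the 1001 bp around the gene start was 0.75 for the 6 genes without a mark in siControl, against 0.25 for the 2973 protein-coding genes without one. Over all 50 genes the median was 0.75 (all protein-coding genes 0.69), from 0.062 at PAX4 to 1.11 at NKX6-2. The bases upstream of the LHX8 start (chr1:75593869-75594118, plus strand, GRCh37), chosen after the values were seen, hold 12 CG, and 55.6% of all upstream sequences hold at least as many. LHX8 is shown as a gene without any peak, and its ratio of 0.53 is the lowest of the 6.
LHX8: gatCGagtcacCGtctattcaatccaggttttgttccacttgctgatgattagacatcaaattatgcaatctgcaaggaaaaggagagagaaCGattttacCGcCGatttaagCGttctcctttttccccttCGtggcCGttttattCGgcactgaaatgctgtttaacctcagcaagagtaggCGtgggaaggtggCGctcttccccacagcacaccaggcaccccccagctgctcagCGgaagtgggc

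Several of the genes lie beside each other, and 11 pairs have starts within 1 Mb. In siControl 6 of the 11 pairs had the same combination of marks. Since 27 of the 50 genes had H3K4me3 with H3K27me3, pairs that are not neighbours would often agree too. IRX1 and IRX2 agreed only in having no mark. Whether neighbours agree more often than other pairs was not tested. The DLX genes form convergent pairs. DLX3 and DLX4 (26.6 kb apart) and DLX5 and DLX6 (19.4 kb) had H3K4me3 and H3K27me3 in all 6 lists each. DLX1 and DLX2 (18.2 kb) had H3K4me3 in all 6 lists, H3K27ac in 5 and 4, and H3K27me3 in 1 and 0. SIX2 and SIX3 (67.8 kb) had H3K4me3 and H3K27me3 in all 6 lists. In the Iroquois cluster on chromosome 16, IRX3 and IRX5 (644.1 kb apart) were acetylated in 5 lists each and lacked H3K27me3, while IRX6, 393.3 kb from IRX5, had no H3K4me3 or H3K27ac and H3K27me3 in 3 lists. On chromosome 14 SIX4 was acetylated in 5 lists, and SIX6, 215.2 kb away, had no H3K4me3 or H3K27ac. Windows of these genes do not overlap, but neighbours can share a domain and are not independent.

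To examine the effect of TGFβ, siControl+TGFβ was compared with siControl. No gene of the set passed the test for any mark (limma on log2 bp, Benjamini-Hochberg adjusted p under 0.05), and 0 had an unadjusted p under 0.05. The lowest adjusted p was 0.87 for H3K4me3 (44 genes of the set tested), 0.99 for H3K27ac (19) and 1.0 for H3K27me3 (37). Over all genes tested, 0.13% passed for H3K4me3, all of them higher, and 0.0% for the other marks. The unadjusted limma p was under 0.05 at 492 higher and 4 lower of the 15377 genes tested for H3K4me3. It was so at 88 and 0 of 12469 for H3K27ac and at 30 and 128 of 8248 for H3K27me3. The fit takes its spread from all groups, so for H3K27ac it includes the siPHF13+TGFβ lists of 6004 and 32403 peaks. With only the 4 libraries compared, limma gave 850 higher and 1 lower at unadjusted p under 0.05 for H3K27ac. Of the set, 1 gene was among these, 0 passed, and the lowest adjusted p was 0.51. For H3K4me3 1 gene of the set had an unadjusted p under 0.05 in that fit, and for H3K27me3 0. In simulated data with the spread of all groups, the test found 29.5% of log2 changes of 1 and 80.5% of changes of 2 for H3K4me3. It found 0% of changes of 4 and 47% and 65% of changes of 8 for H3K27ac and H3K27me3. Recovery with only the 4 libraries compared was not simulated. A window of median length allows a change of at most 6.72 on this scale. For H3K27ac and H3K27me3 a change that most of these genes could show was therefore not shown to be detectable with that spread. For a single gene, 2 libraries against 2 cannot give an exact permutation p below 0.333.

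In values, H3K4me3 was higher in both siControl+TGFβ libraries than in both siControl libraries at 10 of the 50 genes and lower at 0, where 36.2% and 1.61% of all protein-coding genes were higher and lower. The 10 were PAX5, PAX6, LHX2, LHX3, NKX2-5, SIX2, DLX1, DLX2, PITX1 and PITX3. The largest difference was at PITX1, with 2423 and 3686 bp in siControl and 4059 and 4050 bp in siControl+TGFβ, a log2 change of 0.43 ± 0.33 (SE, n = 2; limma adjusted p = 0.87). LHX2 (1973 and 3283 against 3656 and 3421 bp), PAX6 and PAX5 followed, with differences of means of 911, 624 and 426 bp. The median log2 change was 0.13 over the 50 genes and 0.08 over all protein-coding genes. Over the 50 it was -0.03 without siControl replicate 1, the shortest siControl list. Then 11 genes were higher and 14 lower, against 44.2% and 10.2% of all genes. Without siControl replicate 2, 34 were higher and 2 lower, against 57.9% and 7.02%. Without siControl+TGFβ replicate 2, 27 were higher and 1 lower, against 55.3% and 3.64%.

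H3K27ac was higher in both siControl+TGFβ libraries at 4 genes and lower at 0, against 34.5% and 0.0348% of all genes. The 4 were DLX2, DLX1, PAX8 and GBX2. DLX2 had 0 and 217 bp in siControl and 1824 and 644 bp in siControl+TGFβ, a log2 change of 2.75 ± 1.5 (SE, n = 2; limma adjusted p = 0.99). DLX1 had 0 and 366 against 1162 and 811 bp, and GBX2 had 0 and 681 against 1141 and 743 bp. In these 3 genes the siControl and siControl+TGFβ values were apart, but siControl replicate 1, with 0 bp, came from a list of 19413 peaks and siControl+TGFβ replicate 1 from one of 36104. Their part in the result was not tested. When all lists were cut to the 6004 peaks of the shortest, siPHF13+TGFβ replicate 1, 1 of the 50 genes was higher, against 13.8% of all genes. That cut removed most peaks of the libraries compared here. It left 3 genes of the set to test, against 19 with full lists, so few could be counted as higher. With full lists but without siControl replicate 2 or siControl+TGFβ replicate 2, 11 and 19 were higher, against 52.6% and 62.2% of all genes. The mean values of 20 genes were higher and of 0 lower, against 12512 and 311 of all genes, and the median change was 0.00, since 28 of the 50 had no H3K27ac peak.

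H3K27me3 was higher in both siControl+TGFβ libraries at 2 genes, PAX4 and LHX3, and lower at 1, PAX8, against 2.63% and 2.97% of all genes. LHX3, a pituitary and motor neuron factor, had 1050 and 2935 bp in siControl and 3271 and 3070 bp in siControl+TGFβ. PAX8 had 1971 and 972 bp against 593 and 875 bp. The median log2 change was 0.14 (0.00 over all genes), and it rests on which siControl library is used. Without siControl replicate 1 it was -0.13, with 29 genes lower and 2 higher, against 33.7% and 2.81% of all genes. Without siControl replicate 2 it was 0.48, with 29 higher and 1 lower, against 26.2% and 3.75%. These shares also count genes without the mark. No gene of the set had a peak of any mark in both libraries of a group and neither of the other, where the background was 0.333% gained and 0.00994% lost for H3K4me3, 1.71% and 0.00497% for H3K27ac, and 0.259% and 0.766% for H3K27me3.

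To examine the effect of PHF13 depletion in TGFβ-treated cells, siPHF13+TGFβ was compared with siControl+TGFβ, which is also the treated group of the comparison above, so the results are not independent of each other. Again no gene of the set passed limma's test for any mark, and 0 had an unadjusted p under 0.05. The lowest adjusted p was 0.41 for H3K4me3, 0.69 for H3K27ac and 0.83 for H3K27me3, and 0.163%, 0.0% and 0.0% of all genes tested passed. For H3K4me3 the unadjusted limma p was under 0.05 at 2 higher and 1430 lower of the 15377 genes tested. It was so at 0 and 4 of 12469 for H3K27ac and at 10 and 180 of 8248 for H3K27me3. The values differ mostly through siPHF13+TGFβ replicate 1, so counts and medians are given with and without it.

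H3K27me3 was lower in both siPHF13+TGFβ libraries than in both siControl+TGFβ libraries at 17 of the 50 genes and higher at 0, against 12.1% and 0.502% of all genes. The largest differences of means were at LHX6 (14568 and 12960 bp without and 2158 and 10891 bp with depletion), PAX6, LHX2 and PAX4, with differences of -7240, -5846, -4832 and -4804 bp. LHX6, an interneuron factor, gave a log2 change of -1.47 ± 1.06 (SE, n = 2; limma adjusted p = 0.83). LHX3 and IRX4, a ventricular heart factor, had 0 bp in replicate 1 and 2529 and 2724 bp in replicate 2, below 3070 and 4457 bp in siControl+TGFβ. The other genes of the 17 were LHX4, NKX2-5, SIX2, SIX3, DLX3, DLX4, DLX5, DLX6, IRX6, EN2 and PITX1.

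Replicate 1 was the lower siPHF13+TGFβ library in 16 of the 17. Relative to siControl+TGFβ the median log2 value of the 17 was -1.72 in replicate 1 and -0.17 in replicate 2. These genes were picked by their low values, so this is a description. Over all 50 genes the median log2 change was -0.54, and it was 0.00 without replicate 1. The median of 0.00 over all genes has another base, since 52.9% of them have no H3K27me3 in any list. Over the genes tested the medians were -0.67 (37 of the 50) and -0.92 (all), and the share of 12.1% also counts genes without the mark. Centring each library on its median shifted the median over all genes to 1.22 and that of the 50 to 0.68. These also count genes without the mark, which centring moves from 0. Over the genes tested the centred medians were 0.55 (of the 50) and 0.30 (all), the reverse order. Without replicate 1, 17 genes were lower and 6 higher than both siControl+TGFβ libraries, against 12.3% and 12.7% of all genes. IRX6 was the gene with a peak in both siControl+TGFβ libraries (1416 and 1379 bp) and in neither siPHF13+TGFβ library, where 1.67% of all genes were lost and 0.149% gained. In siControl it had 0 and 3688 bp.

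**Figure D5:**
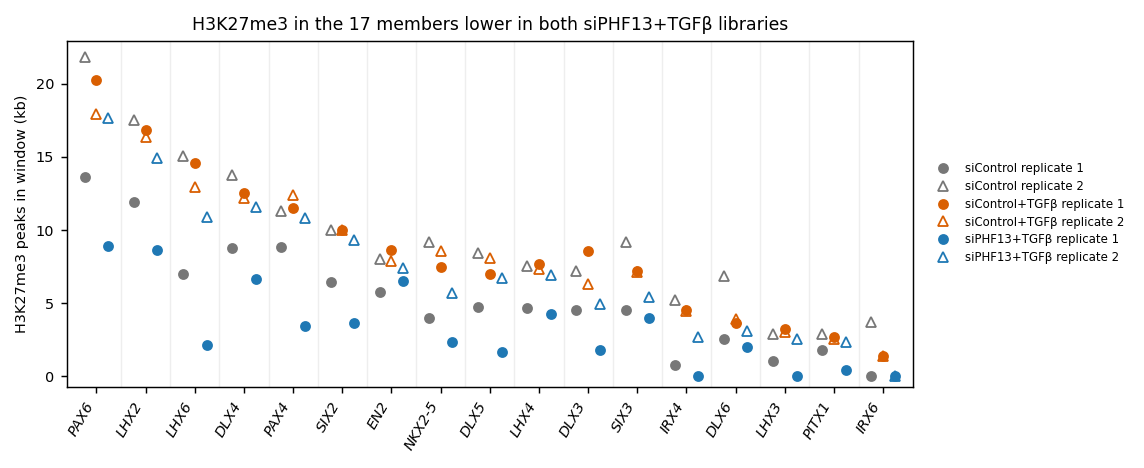
H3K27me3 peaks in the gene window (kb, y axis) of the 17 genes whose value was lower in both siPHF13+TGFβ libraries than in both siControl+TGFβ libraries. Each point is 1 library, with circles for replicate 1 and triangles for replicate 2. siPHF13+TGFβ replicate 1 is the lower of its group in 16 of the 17, and siControl replicate 1 is also below siControl replicate 2 in each.

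H3K4me3 was lower in both siPHF13+TGFβ libraries at 14 genes and higher at 0, against 47.2% and 0.224% of all genes. At PITX1 it covered 4059 and 4050 bp without and 2154 and 3732 bp with depletion, a log2 change of -0.50 ± 0.33 (SE, n = 2; limma adjusted p = 0.41). LHX2 had 1948 and 3265 bp, LHX4, a pituitary factor, 2022 and 2963 bp, and MSX2, a factor of skull and limb, 1639 and 2353 bp, against 3656 and 3421, 3531 and 3200, and 2918 and 2515 bp. The other 10 were PAX8, LHX3, LHX6, NKX2-5, SIX3, DLX1, IRX2, IRX4, EN1 and EN2. The median log2 change was -0.24 over the 50 genes and -0.17 over all genes, and -0.01 and -0.05 without replicate 1. Without that library 14 genes were lower and 8 higher than both siControl+TGFβ libraries, against 48.2% and 8.06% of all genes. With the 50% strongest peaks of each list, limma called PAX8 alone of these genes, higher with TGFβ (0.801% of all genes tested) and lower with depletion (1.27%), but its peak passed that filter only in siControl+TGFβ and was set to 0 bp elsewhere. None of these genes had lost or gained the mark in both libraries, where 0.641% and 0.00497% of all genes had.

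H3K27ac was lower in both siPHF13+TGFβ libraries at 0 of the 50 genes and higher at 0, against 6.51% and 0.00994% of all genes. Replicate 1 and replicate 2 lay on opposite sides of siControl+TGFβ in most acetylated genes. At PITX1, for example, they were 0 and 2794 bp, around 2118 and 872 bp. Without replicate 1, 12 genes were higher than both siControl+TGFβ libraries and 0 lower, against 18.9% and 6.51% of all genes. Without replicate 2, 13 were lower and 0 higher, against 57.6% and 0.0199% of all genes. In that fit limma called 10 of the 19 genes tested lower (PAX2, PAX8, LHX1, SIX4, SIX5, DLX2, IRX3, IRX5, PITX1 and PITX3), against 77.1% of all genes tested, so the count says nothing particular to them. The sign of the H3K27ac difference therefore rests on which of the 2 libraries is used. The background of loss and gain was 0.293% and 0.00497%, and none of these genes was lost or gained.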

How the data were processed

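PANC-1 ChIP-seq peak lists of 3 marks in 3 groups, 2 libraries each, were analysed, and 6 input samples were not analysed here. According to the study's methods and the submitters' processing notes, the authors used Trim Galore 0.4.1, Bowtie 2 2.4.1 with hg19, Picard and MACS2 2.2.7.1, calling narrow peaks (broad for H3K27me3) per library against input. Each deposited peak carries a fold enrichment, a ratio over input, and a −log10 q-value, as the authors' caller wrote them, which were used only to rank and filter peaks. No read counts are in these lists, so depth and intervals are not given. A deeper or better enriched library yields more and wider peaks, and this also moves covered bp. The deposited lists of siPHF13+TGFβ replicate 1 and of H3K27me3 siControl replicate 1 are shorter than the study states.

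Covered bp within 5 kb of protein-coding TSSs (GENCODE release 44 on GRCh37, the hg19 sequence) was computed in Python 3.11.15 with NumPy 2.4.6 and tested on simulated intervals against bedtools 2.31.1. Genes covered in at least 2 of 6 lists were compared as log2(bp + 100) with limma 3.58.1 in R 4.3.3, 3 groups in a single fit. Changes are on that scale and understate low values. The set of genes, picked by name, and the lists were proposed with earlier results of these data known. Each gene was named once with its combination of marks. Given by library were up to 3 genes with the most bp in each combination, up to 4 genes in each direction with non-overlapping groups and the largest difference, genes lacking H3K27me3 in all lists and genes with H3K27ac in at least 5. Alternatives were windows of 2.5 kb, gene starts only, the 50% strongest peaks, equal list lengths, −log10 q of at least 3, a pseudocount of 10 bp, centring, no filter, 4 libraries, a replicate block and leaving out each library. HOX, forkhead and other homeobox genes served for comparison. Marks at 24 histone-modifying genes were also counted: 24 had H3K4me3 in all 6 lists.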

Additional observations from a re-analysis of the deposited data

How the results depend on the processing

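Of the recomputed values, 271 stayed within 1.5 times the value given (counts) or within the spread between replicates (medians), and 83 moved. Values that stayed are mostly left out below. The counts of genes below are of the 50 homeobox genes, higher or lower in both libraries of the later group unless stated. Percentages in brackets after them are the same shares over all protein-coding genes, including genes without the mark. The number of reads behind the lists limits all of them and is unknown, and causes were not tested unless given.

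With the 50% strongest peaks, limma called 1 gene for H3K4me3, PAX8, higher with TGFβ and lower with depletion. Of all genes tested, 0.801% and 1.27% were called in these directions. The filter makes the PAX8 call, since its strongest peak lay at percentiles 56.3 and 63.0 in siControl+TGFβ. It lay at 32.8 to 49.0 in the other lists and so was set to 0 bp there. In that setting 1 gene was lower in H3K4me3 with TGFβ (2.03%), 1 lower in H3K27ac with depletion (6.63%) and 0 lower in H3K27me3 with TGFβ (2.23%). That setting also left 17 and 12 genes with H3K4me3 and H3K27me3 in siControl and siPHF13+TGFβ, 3, 1 and 0 with H3K4me3 and H3K27ac in the 3 groups, 12, 11 and 13 with H3K27me3 alone, and 18 and 17 with H3K4me3 alone or no mark in siControl and siControl+TGFβ. Centring gave 7 genes lower in H3K4me3 with TGFβ (13.3%), 9 higher (14.4%) and 6 lower (14.1%) with depletion. For H3K27ac it gave 3 lower with TGFβ (11.5%) and 11 higher with depletion (14.8%). The H3K27ac medians were -0.58 and 1.85, but 28 of the 50 genes had no peak, so these reflect the centring of genes at 0 bp. Over the genes of the set tested for H3K27ac they were 0.42 and 0.61. For H3K27me3 centring gave 3 higher (5.17%) and 6 lower (9.77%) with TGFβ, and 6 higher (9.08%) and 4 lower (5.03%) with depletion. The H3K27me3 median with depletion was 0.68, and 0.55 over the genes of the set tested. Windows of 2.5 kb gave 1 gene higher in H3K27me3 with TGFβ (2.63%), 1 higher with depletion (0.388%), and 6, 6 and 5 with H3K27me3 alone. Gene starts gave 1 gene lower in H3K27ac with depletion (6.63%), 0 lower in H3K27me3 with TGFβ (3.03%) and 5 with H3K27me3 alone in siControl. Lists of equal length were cut to the shortest list of each mark, 6004 peaks for H3K27ac. They gave 1 gene higher in H3K27ac with TGFβ (13.8%), and 4 higher (4.06%) and 0 lower (2.19%) in H3K27me3. They left 0 and 0 genes with H3K4me3 and H3K27ac in siControl and siControl+TGFβ, and 20 and 18 with H3K4me3 alone or no mark. A −log10 q of at least 3 gave 0 genes higher and 0 lower in H3K27me3 with TGFβ and 0 lower with depletion, 0, 4 and 0 with H3K4me3 and H3K27me3, 1, 0 and 0 with H3K27me3 alone, and 41, 34 and 48 with H3K4me3 alone or no mark.

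Each library was then left out in turn, with the range of shares over all protein-coding genes in brackets. H3K4me3 was higher with TGFβ at 11 to 34 genes (42.7% to 57.9%) and lower at 1 to 14 (3.64% to 10.2%). With depletion H3K4me3 was higher at 0 to 8 (0.661% to 8.06%) and lower at 14 to 42 (48.2% to 72.4%). H3K27ac was higher with TGFβ at 4 to 19 and lower at 0 to 2, and higher with depletion at 0 to 12 and lower at 0 to 13, and limma called 0 to 10, the 10 without siPHF13+TGFβ replicate 2, where 77.1% of all genes tested were called lower. Over all protein-coding genes, H3K27ac was higher with TGFβ at 34.9% to 62.2% and lower at 0.0547% to 4.07%. With depletion it was higher at 0.00994% to 18.9% of all genes and lower at 6.51% to 57.6%. H3K27me3 was higher with TGFβ at 2 to 29 (2.81% to 26.2%) and lower at 1 to 29 (3.75% to 33.7%). With depletion H3K27me3 was higher at 0 to 6 (0.99% to 12.7%) and lower at 17 to 33 (12.3% to 31.6%). Genes with H3K4me3 alone or no mark numbered 2 to 11 in siControl, 4 to 7 in siControl+TGFβ and 5 to 19 in siPHF13+TGFβ, and those with H3K4me3 and H3K27ac in siPHF13+TGFβ 3 to 11. In limma fits with a library left out, the lone library of a group was assumed to vary like the other groups.

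With the replicate number as a block, limma called 0 of the 50 genes in each of the 6 fits, as without it, and 0 of all genes against 20 and 25 for H3K4me3. Deviations of same-numbered libraries correlated at -0.41 to 0.51, so the libraries share a number and no pairing was assumed.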
